A study of Rattus norvegicus with 6 samples.

Results

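The 37 genes of the rat mitochondrial genome were examined in lumbar spinal cord, from the side of the operated leg, in 3 libraries of rats with bone cancer pain (BCP) and 3 libraries of rats with a sham operation. They were taken as all the rows of the gene table placed on the mitochondrial chromosome, MT, and were 37 of 30957 rows. They comprised 13 mRNAs named in the table and 24 rows without a gene name. By length, 2 of the unnamed rows were ribosomal RNAs and 22 were transfer RNAs of 60 to 75 bases. All the rats were adult female Wistar rats. In the BCP group living Walker 256 cells, a rat mammary carcinoma line syngeneic to Wistar rats, had been implanted into the medullary cavity of the left tibia, and the sham group had received heat-killed Walker 256 cells by the same operation. The spinal cord was taken on day 14, after removal of the meninges, from the side of the injected bone. The sham group therefore shares the surgery and the cell debris with the BCP group, and no untreated rats were analysed here.

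Mitochondrial DNA is a small circular genome, present in many copies per cell, that encodes core subunits of the respiratory chain and of ATP synthase together with the rRNAs and tRNAs needed to translate them. Each strand is transcribed into a long precursor, which is cut at the tRNAs that punctuate it. Nearly all mRNAs and both rRNAs come from the heavy strand promoters, and Mt-nd6 is the only mRNA of the light strand transcript. All other subunits, and the whole machinery of mitochondrial transcription and RNA processing, are encoded in the nucleus. Neurons of the spinal cord depend on oxidative phosphorylation for firing and for axonal transport.

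Counts summed over the genes ranged from 11779485 to 15004290 per library, and each library was compared after TMM scaling, in normalised read counts (CPM), which are counts relative to the scaled library total. Of 14908 genes tested, 15.8% were higher and 12.1% lower in BCP at an adjusted p under 0.05 (edgeR's quasi-likelihood test with Benjamini-Hochberg adjustment), and 6.45% differed by more than 2-fold. Levels of cell type markers differed as well. The summed level of 8 oligodendrocyte markers was 39344 to 44676 CPM in sham and 28300 to 31495 CPM in BCP, and all 8 were lower. Red blood cell markers were 249 to 264 CPM in sham and 476 to 689 CPM in BCP, with 5 of 5 higher. The 6 T cell markers, all higher, had 4.88 to 5.79 CPM in sham and 41.3 to 44.7 CPM in BCP. Microglial markers rose for 5 of 8, from 224 to 286 CPM in sham to 594 to 700 CPM in BCP. Neuronal markers had 8563 to 8676 CPM in sham and 7283 to 8092 CPM in BCP, with 4 of 10 lower, and the tissue thus carried its defining neuronal and glial markers in every library. Astrocyte markers summed to 6481 to 6716 CPM in sham and 7580 to 9656 CPM in BCP, with 1 of 7 higher and 3 lower. Endothelial markers were 270.0 to 280.2 CPM in sham and 266 to 268 CPM in BCP, with none of 4 called. Skeletal muscle markers were 9.56 to 11.9 CPM in sham and 5.30 to 7.42 CPM in BCP, with 1 of 3 tested lower. No marker of these lists was at 0 in all libraries. The part of these differences in the mitochondrial values below was not tested. In a bulk sample, fewer cells of a type and less RNA per cell cannot be told apart.

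The mitochondrial genome supplied 4.52%, 4.07% and 4.92% of the gene counts in sham and 4.14%, 3.84% and 4.10% in BCP. The means were 4.50% ± 0.426 (SD, n = 3) and 4.03% ± 0.163 (SD, n = 3). The third sham library was the highest and the second BCP library the lowest, but the groups overlapped, since the second sham library lay below 2 of the BCP libraries. The difference of 0.474 percentage points was only slightly larger than the spread of the sham group. In counts, the genome held 603813, 589628 and 738347 in sham and 487947, 528823 and 531588 in BCP. These counts are not scaled for depth, which also differed between libraries. The total gene counts were 13366905, 14490611 and 15004290 in sham and 11779485, 13764758 and 12962115 in BCP.

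**Figure D1:**
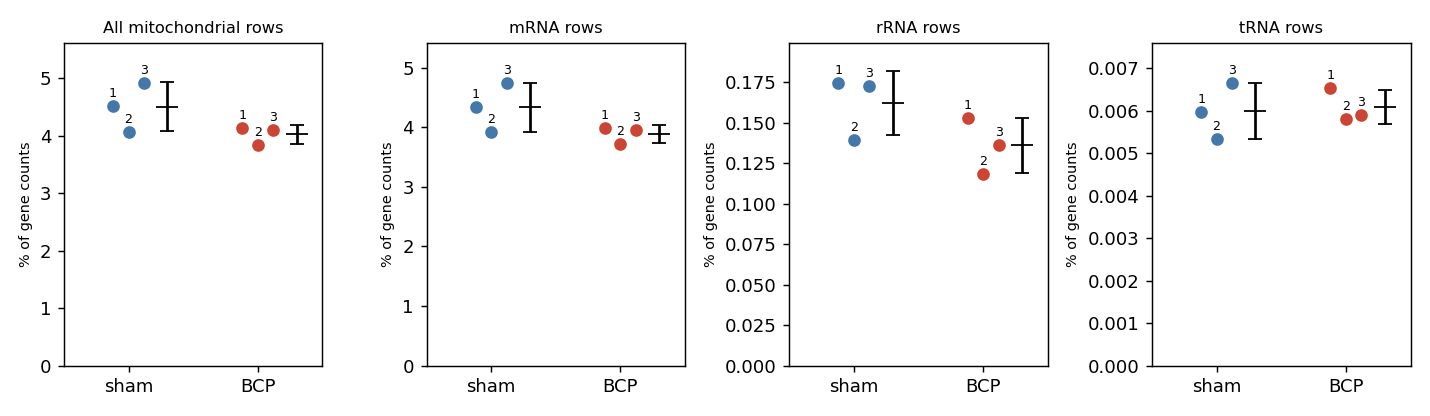
Share of gene counts (%, axes from 0) held by all mitochondrial rows and by the mRNA, rRNA and tRNA rows in each library, with the mean and SD of each group (n = 3) to the right of the points and replicate numbers above them. Sham ran from 4.07% to 4.92% and BCP from 3.84% to 4.14% for all rows, and the groups overlapped in every panel.

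The mRNAs carried almost all of this share, with 96.0% to 96.8% of the mitochondrial counts. Their part of the gene counts was 4.33% ± 0.409 in sham and 3.89% ± 0.147 in BCP (SD, n = 3 each), and these groups overlapped. The rRNA rows, in libraries from which ribosomal RNA had been removed with Ribo-Zero beads, held 0.162% ± 0.0199 in sham and 0.136% ± 0.0172 in BCP, also with overlap. The tRNA rows held 0.00599% ± 0.000655 and 0.00608% ± 0.000402 of the gene counts. Within the mitochondrial counts, the tRNA rows took 0.132%, 0.131% and 0.135% in sham and 0.158%, 0.151% and 0.144% in BCP, so that on this scale the groups did not overlap.

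Per length, the 13 mRNAs spanned a 50.2-fold range of level. Levels between genes were compared in FPKM, the deposited values scaled to gene length and library size. Mt-co1, the catalytic subunit of cytochrome c oxidase (complex IV), was the most abundant at 13482 FPKM ± 895 (SD over 6 libraries). It held 46.8% to 50.7% of the mitochondrial counts and was the gene with the most counts of the whole table in every library. It was followed by Mt-cox3 and Mt-co2, the other mitochondrially encoded complex IV subunits, and by Mt-nd1, a membrane subunit of NADH dehydrogenase (complex I). These had 3784 FPKM ± 513, 3687 FPKM ± 380 and 3627 FPKM ± 322, and did not differ beyond their spread. The ATP synthase subunit Mt-atp8 (2783 FPKM ± 287), the complex III subunit Mt-cytb (2627 FPKM ± 469) and Mt-nd2 of complex I (2532 FPKM ± 222) formed the next group. Their SDs over the 6 libraries overlapped, although Mt-atp8 exceeded Mt-nd2 in every library. Mt-nd4l had 1817 FPKM ± 226, Mt-nd5 had 1501 FPKM ± 215 and Mt-atp6, of the ATP synthase proton channel, had 1072 FPKM ± 159. The lowest levels were those of Mt-nd6 (727 FPKM ± 150), Mt-nd4 (459 FPKM ± 73.6) and Mt-nd3 (269 FPKM ± 38.3).

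The order was nearly the same in both groups. Mt-nd6 was 11th in sham and in BCP, and every gene kept its rank or moved by at most 2 places. Some mRNAs share one transcript but had unequal levels. Mt-nd4l and Mt-nd4 overlap by 7 bases, yet Mt-nd4l had 3.91 ± 0.156 times the FPKM of Mt-nd4 in sham and 4.05 ± 0.180 times in BCP. Mt-atp8 and Mt-atp6 overlap by 43 bases, and their ratio was 2.49 ± 0.147 in sham and 2.73 ± 0.0909 in BCP (SD, n = 3 each). Both ratios overlapped between the groups. How the counter assigned reads in the overlaps, and reads that also match copies of mitochondrial DNA in the nuclear genome, is not stated in the sources used here, so levels per gene may carry such reads.

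**Figure D2:**
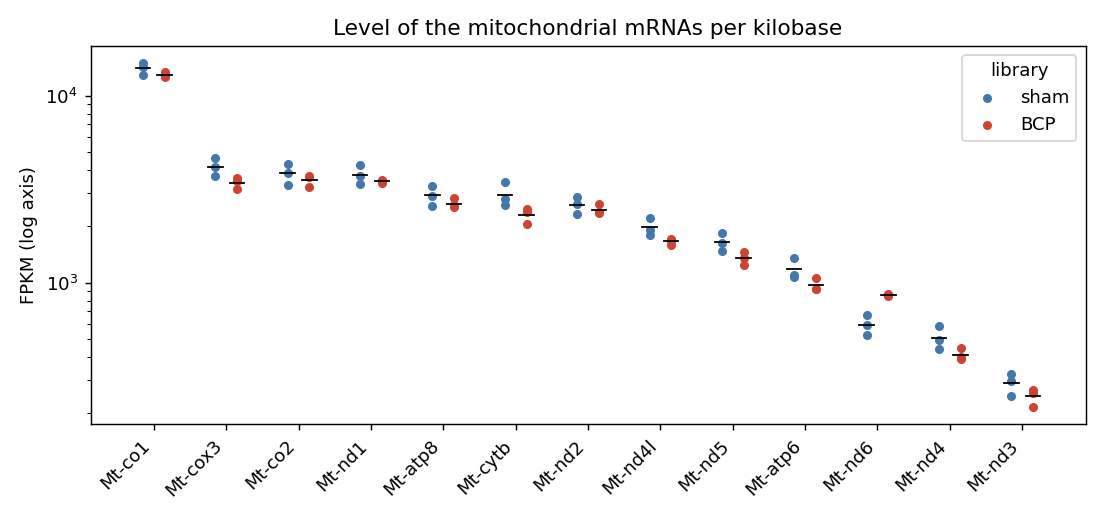
FPKM of the 13 mitochondrial mRNAs (log axis) in each of the 3 sham and 3 BCP libraries, ordered by mean, with a black line at each group's mean. Mt-co1 stood alone at 13482 FPKM on average, Mt-nd3 was lowest at 269 FPKM, and Mt-nd6 was the only gene whose BCP points lay above all its sham points.

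Of the 37 rows, 21 passed edgeR's filter on low counts, namely all 13 mRNAs, both rRNA rows and 6 tRNA rows. Of these 21 genes 1 was higher and 2 were lower in BCP at an adjusted p under 0.05, beside 15.8% higher and 12.1% lower over all tested genes, and 0 differed by more than 2-fold, beside 6.45% of all genes. The higher gene was Mt-nd6, and the lower genes were Mt-co1 and Mt-nd4l. At an unadjusted p under 0.05, 5 genes were lower and 1 higher, beside 2641 lower and 2922 higher of all 14908 tested genes. Without overlap between the groups, 7 genes were lower in BCP and 1 was higher, and over all tested genes these shares were 19.8% and 21.7%.

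Among the mRNAs, 12 of 13 had a log2 fold change below 0, with a median of -0.28 over the 13, beside -0.01 over all tested genes, of which 7792 of 14908 were below 0. The signs were the same under 15 other fits and scalings. They differed when the summed mitochondrial mRNA counts served as library size, where 7 of 13 were below 0, Mt-nd1, Mt-nd2, Mt-co1, Mt-co2 and Mt-atp8 were above 0, and the median of all genes moved to 0.18. Relative to the median of all genes, the median of the mRNAs was -0.26 in the reported fit and -0.25 with that library size. It was -0.17 without BCP replicate 2, -0.18 without sham replicate 3 and -0.35 without sham replicate 2. The number of lower genes depended on single libraries. It was 1 without sham replicate 1 or BCP replicate 3, 0 without BCP replicate 1 or BCP replicate 2, 10 without sham replicate 2, and 6 without sham replicate 3. DESeq2 called 7 lower.

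Mt-nd6 (ENSRNOG00000029042, MT:13543-14061 in Rnor_6.0), which encodes a membrane subunit of complex I, was the mitochondrial gene that rose. Its counts were 4625, 3954 and 4637 in sham and 5150, 6148 and 5849 in BCP. In CPM, these were 352, 276 and 313 in sham and 435, 439 and 442 in BCP. Every BCP library was above every sham library, and the BCP libraries were within a few CPM of each other. The mean rose from 314 ± 38.2 to 439 ± 3.74 CPM (SD, n = 3 each), a log2 fold change of 0.48 (SE 0.0762, edgeR adjusted p = 0.00115) or 39.9%. This call held in all 16 alternative fits, with log2 fold changes of 0.40 to 0.68 and adjusted p-values up to 0.0161.

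The rise of Mt-nd6 stood against lower values of the neighbouring mRNAs. The tRNA row AY172581.20, between Mt-nd6 and Mt-cytb, had 118 counts in all and a log2 fold change of 0.02 (edgeR adjusted p = 0.976). For each 1000 counts of the other mitochondrial mRNAs, Mt-nd6 had 8.04, 7.001 and 6.56 counts in sham and 11.1, 12.2 and 11.5 counts in BCP. The mean thus went from 7.20 ± 0.761 to 11.6 ± 0.534 (SD, n = 3 each), 1.61 times as much, with no overlap. This ratio needs no library size, and it was looked at after the direction of Mt-nd6 was known. The FPKM of Mt-nd6 was 0.362 ± 0.0441 of that of Mt-nd5 in sham and 0.638 ± 0.0582 in BCP. Relative to Mt-cytb, on its other side, it was 0.204 ± 0.0329 in sham and 0.374 ± 0.0397 in BCP. The span of Mt-nd6 lies opposite to the heavy strand transcript and overlaps that of Mt-nd5 by 23 bases. The libraries were strand-specific, but whether the counter used the strand is not stated in the sources used here, and without it reads of both strands over this span cannot be told apart.

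**Figure D3:**
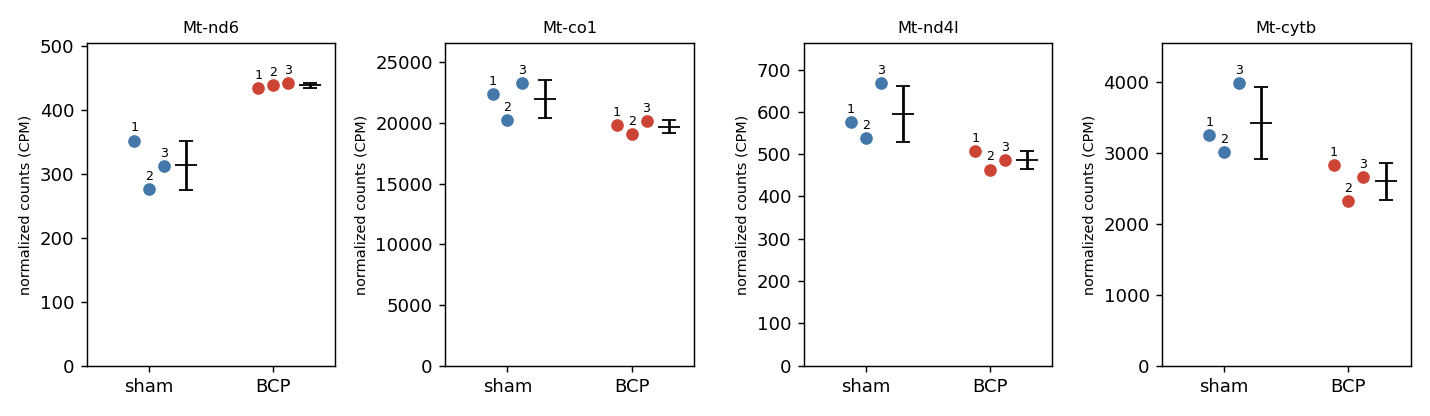
Normalised counts (CPM, axes from 0) of Mt-nd6, Mt-co1, Mt-nd4l and Mt-cytb in each library, with the mean and SD of each group (n = 3) to the right of the points and replicate numbers above them. Mt-nd6 lay between 276 and 352 CPM in sham and between 435 and 442 CPM in BCP, and the other 3 genes were lower in BCP in every library.

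Mt-co1 (ENSRNOG00000034234, MT:5323-6867) had 22407, 20217 and 23314 CPM in sham and 19852, 19130 and 20147 CPM in BCP. All BCP libraries were lower, although the second sham library exceeded the highest BCP library by little. Mt-co1 fell by 0.16 on the log2 scale (SE 0.0458, edgeR adjusted p = 0.0159), that is from 21979 ± 1592 to 19710 ± 523 CPM (SD, n = 3 each). The call was lost without sham replicate 1 (adjusted p = 0.0642), sham replicate 3 (0.179), BCP replicate 1 (0.189) or BCP replicate 2 (0.0944), and without scaling factors (0.0726).

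Mt-nd4l (ENSRNOG00000031053, MT:9870-10166), a small membrane subunit of complex I, had 577, 539 and 668 CPM in sham and 507, 464 and 487 CPM in BCP. It fell by 0.29 on the log2 scale (SE 0.0750, edgeR adjusted p = 0.0184), without overlap between the groups. This call was lost without BCP replicate 1 (adjusted p = 0.0866), BCP replicate 2 (0.0897) or BCP replicate 3 (0.115), each of which leaves 2 BCP libraries.

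The remaining 4 mRNAs of complex I's proton-pumping core and the smaller Mt-nd3 did not pass the test. Mt-nd5 had 3036, 2734 and 3429 CPM in sham and 2657, 2232 and 2422 CPM in BCP, with a log2 fold change of -0.33 (SE 0.110, edgeR adjusted p = 0.0916). Mt-nd4, the partner of Mt-nd4l on the same mRNA, had 692, 613 and 821 CPM in sham and 612, 526 and 538 CPM in BCP (log2 fold change -0.34, edgeR adjusted p = 0.143). Both were lower in BCP without overlap. Mt-nd1 and Mt-nd2, near the start of the heavy strand mRNAs, differed less, with log2 fold changes of -0.16 (adjusted p = 0.197) and -0.13 (adjusted p = 0.408), and their groups overlapped. Mt-nd3 had 102 ± 13.8 CPM in sham and 84.7 ± 9.71 CPM in BCP, with a log2 fold change of -0.28 (adjusted p = 0.180). The complex I mRNAs together, Mt-nd6 included, made up 25.4% ± 0.482 of the mitochondrial mRNA counts in sham and 25.6% ± 0.557 in BCP.

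Mt-cytb (MT:14136-15278), the mitochondrially encoded subunit of complex III, had the lowest log2 fold change of the tested mitochondrial genes. It had 3253, 3017 and 3985 CPM in sham and 2825, 2316 and 2659 CPM in BCP, without overlap. The log2 fold change was -0.40 (SE 0.143, edgeR adjusted p = 0.129), and the SD of the sham libraries was 505 CPM around a mean of 3418 CPM. Its share of the mitochondrial mRNA counts was 7.37%, 7.60% and 8.30% in sham and 7.13%, 6.34% and 6.85% in BCP, again without overlap. Without sham replicate 3, the library with the highest value, Mt-cytb passed the test (adjusted p = 0.0164).

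Of the other complex IV mRNAs, Mt-cox3 had 3304, 2927 and 3658 CPM in sham and 2827, 2435 and 2675 CPM in BCP, without overlap (log2 fold change -0.32, SE 0.0995, edgeR adjusted p = 0.0727). It passed the test without sham replicate 2 (adjusted p = 0.0019) or sham replicate 3 (0.0149). Mt-co2 had 2656 ± 339 CPM in sham and 2391 ± 175 CPM in BCP, with a log2 fold change of -0.15 (edgeR adjusted p = 0.425). In ATP synthase, Mt-atp6 had 760, 738 and 935 CPM in sham and 720, 621 and 613 CPM in BCP, without overlap (log2 fold change -0.32, edgeR adjusted p = 0.138). Mt-atp8 had 604 ± 73.2 CPM in sham and 532 ± 34.8 CPM in BCP, with a log2 fold change of -0.18 (edgeR adjusted p = 0.235). Without sham replicate 2, Mt-nd1, Mt-nd2, Mt-nd3, Mt-nd4, Mt-nd5, Mt-co2 and Mt-atp8 passed the test with adjusted p-values of 0.00373, 0.0199, 0.00953, 0.0237, 0.0171, 0.0269 and 0.00547. Without sham replicate 3, Mt-nd4, Mt-nd5 and Mt-atp6 passed it with 0.0281, 0.0175 and 0.0269. The same omission brought the log2 fold changes nearer to 0, to -0.07 for Mt-nd1, -0.06 for Mt-nd2, -0.06 for Mt-co2, -0.10 for Mt-atp8, -0.20 for Mt-atp6 and -0.22 for Mt-nd4. Without sham replicate 2, those of Mt-nd2 and Mt-co2 were -0.21 and -0.24, and without BCP replicate 2 those of Mt-co2 and Mt-nd3 were -0.09 and -0.18.

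The differences of the 12 heavy strand mRNAs broadly followed their order on the genome. The rRNA rows, which lie before Mt-nd1, were not part of this relation. The longer, AY172581.24, had a log2 fold change of -0.30, within the range of the later mRNAs, and the shorter, AY172581.9, had 0.10. The 5 genes from Mt-nd1 to Mt-atp8 had log2 fold changes of -0.18 to -0.13, and 1 of them, Mt-co1, was lower in BCP without overlap. The 7 genes from Mt-atp6 to Mt-cytb, Mt-nd6 left out, had log2 fold changes of -0.40 to -0.28, and 6 of them were lower in BCP without overlap. Over all tested genes, 19.8% were lower in BCP without overlap. Across the 12 heavy strand mRNAs, Spearman's rho between the log2 fold change and the start position was -0.881 and Pearson's r was -0.881. The rho with gene length was -0.217 and that with mean level was 0.0839. These are descriptions over genes that share 6 libraries and a precursor transcript, the split of the genes was chosen after their values were seen, and no test was made. The rho with position ranged from -0.923 to -0.825 over the 16 alternative fits.

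The ratio of the last gene to the first gives a view by library, from the same values. Mt-cytb over Mt-nd1 in CPM was 0.905, 0.924 and 0.970 in sham and 0.850, 0.721 and 0.807 in BCP. These ratios did not overlap, and their means were 0.933 ± 0.0338 and 0.793 ± 0.0657 (SD, n = 3 each). Over the 12 heavy strand mRNAs, log2 CPM minus each gene's mean over the 6 libraries was also set against start position. Spearman's rho was 0.664, 0.629 and 0.860 in sham and -0.357, -0.888 and -0.692 in BCP. The relation was thus weakest in the first BCP library. Each gene was centred over the same 6 libraries, so opposite signs in the groups follow largely from the fold changes above. These rho values are therefore not separate evidence of the relation.

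**Figure D4:**
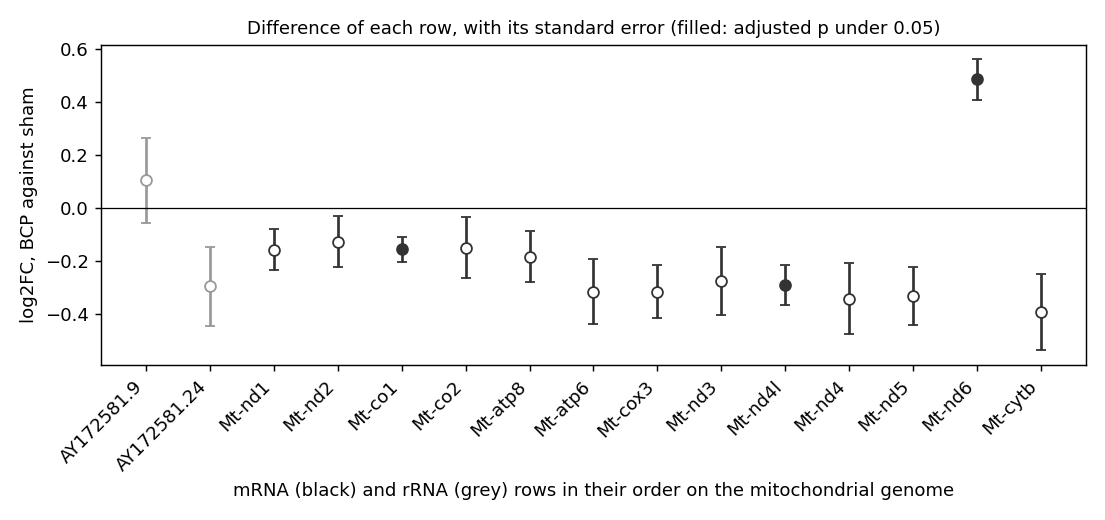
Log2 fold change of BCP against sham (3 libraries each) with its standard error for the 2 rRNA rows (grey) and the 13 mRNAs (black), in their order along the mitochondrial genome, with filled points for adjusted p under 0.05. The heavy strand mRNAs went from -0.16 at Mt-nd1 to -0.40 at Mt-cytb, and Mt-nd6 stood at 0.48.

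The longer rRNA row, AY172581.24 (MT:1094-2664, 1571 bases), had 1767, 1397 and 1733 CPM in sham and 1507, 1156 and 1327 CPM in BCP. The groups overlapped, and the log2 fold change was -0.30 (SE 0.149, edgeR adjusted p = 0.248). The shorter, AY172581.9 (MT:68-1025, 958 bases), had only 11.5 ± 1.80 CPM in sham and 12.4 ± 2.77 CPM in BCP (log2 fold change 0.10, edgeR adjusted p = 0.690). The count of the longer row was 156, 143 and 130 times that of the shorter in sham and 97.0, 112 and 116 times in BCP. The ratio did not overlap between the groups, with means of 143 and 109. Whether the Ribo-Zero beads used also remove mitochondrial rRNA is not stated in the sources used here.

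The tRNA rows had few counts in these libraries of fragmented RNA, and 16 of 22 did not pass the filter, with at most 11 counts in a library. Of these, AY172581.12, named after its values were seen, had 5, 8 and 7 counts in sham and 9, 11 and 8 in BCP. Its counts met at 8, and only its CPM did not overlap, with 0.558 in the second sham and 0.605 in the third BCP library. All the other untested rows overlapped in CPM, and 21.7% of all tested genes were higher in BCP without overlap. AY172581.14 (MT:2665-2739), next to the longer rRNA row, had the most, with 2102 counts in all, and 25.1, 23.2 and 29.9 CPM in sham and 27.3, 25.1 and 24.4 CPM in BCP. The lowest were AY172581.13, AY172581.10 and AY172581.7, with 1 count each in all libraries together. The 6 tested tRNA rows had log2 fold changes of -0.13 to 0.39, and none passed the test. The table does not say which amino acid each row carries.

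Of 229 tested nuclear genes in 10 lists of mitochondrial function, 6 were higher and 18 lower in BCP, that is 2.62% and 7.86%, beside 15.8% and 12.1% over all tested genes. Their median log2 fold change was -0.06. Genes were counted by identifier, so that Ears2, Cox6b1 and Cox7a2 each counted more than once. The count of higher genes was 3 without BCP replicate 2 or BCP replicate 3. The count of lower genes was 11 without sham replicate 2 or BCP replicate 2 and 10 without BCP replicate 3. Of 20 nuclear genes named below that passed the test, 11 passed it under all 15 alternative fits run on them.

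In the list for mitochondrial DNA maintenance and transcription, 1 of 23 genes was higher and 1 lower, with a median log2 fold change of 0.05. These were 4.35% each, beside 15.8% higher and 12.1% lower over all tested genes. Polrmt, the mitochondrial RNA polymerase, had 26.0 ± 0.705 CPM in sham and 21.9 ± 2.34 CPM in BCP, without overlap, and did not pass the test (log2 fold change -0.24, edgeR adjusted p = 0.0669). Its partner factors Tfam and Tfb2m each had a log2 fold change of 0.07 (adjusted p = 0.721 and 0.776). The DNA polymerase Polg had 0.08 (0.585), and the helicase Twnk, listed as Peo1, had -0.14 (0.281). Ssbp1, which coats single-stranded mitochondrial DNA, rose from 16.5 ± 1.46 to 20.7 ± 3.13 CPM (log2 fold change 0.33, edgeR adjusted p = 0.0426). That call was lost without sham replicate 1, sham replicate 3, BCP replicate 2 or BCP replicate 3, with an adjusted p of up to 0.288. Slc25a4, the ADP/ATP carrier of the inner membrane, fell from 385 ± 16.4 to 312 ± 18.6 CPM (log2 fold change -0.30, edgeR adjusted p = 8.9e-05).

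For RNA processing and stability, 2 of 27 genes, or 7.41%, were higher and 0 lower, beside 15.8% and 12.1% over all tested genes. The median was -0.01. At an unadjusted p under 0.05, 4 were higher and 1 lower, beside 2922 higher and 2641 lower of all 14908 tested genes. Rexo2, a nuclease that removes short RNAs in mitochondria, had 48.3, 47.7 and 42.4 CPM in sham and 52.1, 62.6 and 62.6 CPM in BCP. It rose by 0.36 on the log2 scale (edgeR adjusted p = 0.00196), and every BCP library was above every sham library. Fastkd2, which binds mitochondrial RNAs, rose by 0.29 (adjusted p = 0.0412), a call lost without any single library other than sham replicate 3 (adjusted p of up to 0.200). The stabilisers of mRNAs Lrpprc and Slirp had log2 fold changes of 0.01 (adjusted p = 0.921) and 0.07 (0.772). The processing enzymes Elac2 and Trmt10c, which act at the ends of tRNAs, had 0.05 (0.697) and 0.11 (0.411).

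The mitochondrial ribosome had 0 of 70 genes higher and 1, or 1.43%, lower, with a median of -0.02. Over all tested genes 15.8% were higher and 12.1% lower. Mrpl44 fell by 0.32 (edgeR adjusted p = 0.0487), a call lost without any single library other than BCP replicate 2 (adjusted p of up to 0.213). Of 19 tRNA synthetases 1, or 5.26%, was higher, and it was Kars, whose gene also encodes the cytosolic enzyme. Kars rose from 72.2 ± 8.27 to 104 ± 3.87 CPM (log2 fold change 0.52, edgeR adjusted p = 2.6e-05). Among 15 regulators of mitochondrial biogenesis, 2 were higher and 2 lower. These were 13.3% each, near the 15.8% and 12.1% over all tested genes. Gabpa, a transcription factor of respiratory genes, rose by 0.36 (adjusted p = 0.00255), and Creb1 rose by 0.28 (adjusted p = 0.0300). Ppargc1a, the coactivator PGC-1α, fell from 51.1 ± 2.04 to 43.1 ± 5.27 CPM (log2 fold change -0.25, edgeR adjusted p = 0.0323), and the nuclear receptor Esrrg fell by 0.16 (adjusted p = 0.0305). The call of Creb1 was lost without any single library other than sham replicate 3, and that of Esrrg without any other than BCP replicate 2, with adjusted p-values of up to 0.109 and 0.129. That of Ppargc1a was lost without sham replicate 1, sham replicate 3, BCP replicate 2 or BCP replicate 3, with an adjusted p of up to 0.205.

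Nuclear subunits of the complexes that hold the mitochondrial proteins were mostly below 0. In complex I, 27 of 30 had a log2 fold change below 0 and 6 were lower by the test, which is 20.0% beside 12.1% over all tested genes, with a median of -0.12. Over all tested genes 7792 of 14908 were below 0. Ndufv1 and Ndufv2, subunits of the NADH-binding module, fell by 0.25 and 0.22 (edgeR adjusted p = 0.00291 and 0.00256). Ndufb8, a membrane arm subunit, fell by 0.24 (adjusted p = 0.0175), which was lost without sham replicate 2, BCP replicate 2 or BCP replicate 3 (up to 0.111). In complex III all 8 tested genes were below 0, with a median of -0.11, and 0 passed the test. At an unadjusted p under 0.05, 1 was lower and 0 higher, beside 2641 lower and 2922 higher of all 14908 tested genes.

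In complex IV, 14 identifiers of 12 listed genes were tested, with a median of -0.10. Of these, 11 were below 0 and 4, or 28.6%, were lower, beside 12.1% over all tested genes. The separate identifiers of Cox6b1 had log2 fold changes of 0.17 and -0.10, and those of Cox7a2 had -0.22 and 0.08. Cox5b had 68.9, 71.0 and 71.8 CPM in sham and 53.4, 49.4 and 49.3 CPM in BCP, and fell by 0.48 on the log2 scale (edgeR adjusted p = 9.5e-06). Cox8a and Cox4i1 fell by 0.39 and 0.22 (adjusted p = 0.00152 and 0.00128). In complex V, 14 of 15 were below 0 and 3, or 20.0%, were lower, beside 12.1% over all tested genes. The median was -0.10. Atp5g3, a subunit of the rotor ring, fell by 0.34 (adjusted p = 0.000321), and Atp5a1, of the catalytic head, by 0.18 (adjusted p = 0.00285). Atp5o, of the peripheral stalk, fell by 0.16 (adjusted p = 0.0283), a call lost without any single library other than BCP replicate 1 (up to 0.0986). Of 10 genes of mitophagy and mitochondrial dynamics, 1 was lower, and it was Mfn1, a mitochondrial fusion GTPase, which fell by 0.20 (adjusted p = 0.00699, and 0.0523 and 0.0582 without sham replicate 1 and BCP replicate 2).

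**Figure D5:**
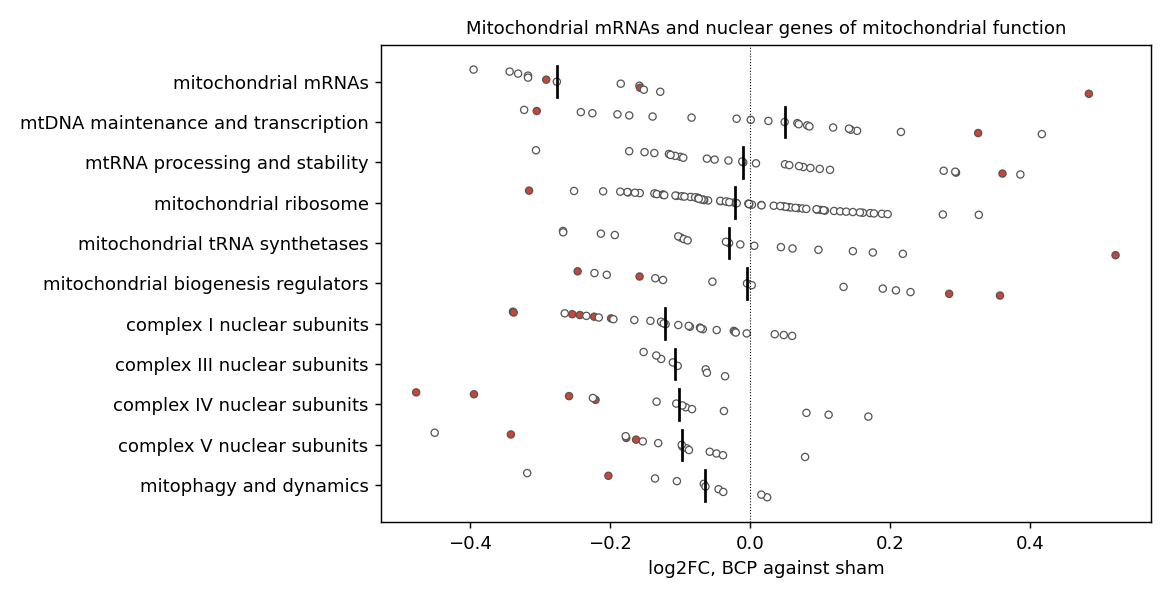
Log2 fold change of BCP against sham (3 libraries each) for each of the 13 mitochondrial mRNAs and for the 10 lists of nuclear genes of mitochondrial function, 1 point a gene, filled where adjusted p was under 0.05, with a black line at the median. The median was -0.28 for the mitochondrial mRNAs and lay between -0.12 and 0.05 for the nuclear lists.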

How the data were processed

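Total RNA of 6 samples was depleted of rRNA and made into strand-specific Illumina libraries. The authors used Seqtk to filter the reads, HISAT2 2.0.4 to place them on Rnor_6.0 and StringTie 1.3.0 to quantify annotated genes. They deposited unnormalised counts per gene and FPKM values. For the mitochondrial rows the deposited FPKM equalled the count scaled to the row's span and the total gene count within a relative difference of 0.00038. How reads were counted, by strand or not and with several locations or not, is not given in the sources used here. The lncRNA table held no mitochondrial row and was not used.

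The test was that of edgeR 4.0.16 under R 4.3.3 (TMM, filter by expression, robust quasi-likelihood fit on condition, Benjamini-Hochberg adjustment over 14908 genes, threshold 0.05). The standard error was derived from the F statistic. The code was tested on simulated data. Alternatives were DESeq2 1.42.0, other scalings and filters, a block and leaving out each library. Samples were grouped by their titles. The labels do not say that each library is 1 animal, so p-values measure the spread between these samples. Unnamed rows longer than 200 bases were taken as rRNA. All mRNAs and rRNAs were named, tRNA rows where they passed the test or had the highest or lowest count, up to 3 nuclear genes per list and direction by smallest p among those passing without overlap, and 10 nuclear genes chosen by role. The members and lists were chosen with earlier results of these data known. Shares and ratios are given by library and overlap without a p, and an exact permutation test of 3 against 3 cannot give one under 0.1.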

Additional observations from a re-analysis of the deposited data

How the results depend on the processing

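Mt-nd6 was called higher, and no mitochondrial gene passed 2-fold, in all 16 alternatives, of which the library size from mitochondrial mRNAs was chosen after seeing the data. The number of lower mitochondrial genes, 2 as reported, was 7 with DESeq2, 1 with library size only, 8 with a fit not robust, 0 with the mitochondrial mRNA library size, and 0 to 10 when 1 library was left out. With the replicate number as a block it was 10. Same-numbered libraries did not deviate together (correlations of -0.105, 0.0439 and -0.0353), so that the numbers were not taken as pairs. Lower nuclear genes, 18 as reported, were 11 with DESeq2, 28 with upper-quartile factors, 12 with library size only and 10 to 17 without 1 library. Higher nuclear genes, 6 as reported, were 3 with upper-quartile factors, 9 with library size only and 3 to 6 without 1 library. The difference in mitochondrial share was negative in all its alternatives, from -0.691 to -0.265 percentage points, the one without Mt-co1 (-0.316) chosen after seeing the data. The cause of these changes was not tested.

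With the mitochondrial mRNA library size the median of the mRNAs was -0.0765, and these were above 0: Mt-nd1 0.0424, Mt-nd2 0.0702, Mt-co1 0.0391, Mt-co2 0.0479, Mt-atp8 0.0151, AY172581.14 0.173 and AY172581.15 0.0706. Log2 fold changes near 0 also changed sign: with upper-quartile factors AY172581.1 -0.00046, AY172581.20 -0.0179 and Lrpprc -0.0266, and with library size only AY172581.14 0.0112. Without 1 library, the values ranged from -0.0779 to 0.227 for AY172581.9, -0.17 to 0.18 for AY172581.1, -0.17 to 0.17 for AY172581.20, -0.107 to 0.0824 for AY172581.14, -0.0183 to 0.173 for Slirp, -0.0221 to 0.0348 for Lrpprc, -0.0397 to 0.148 for Polg, -0.0245 to 0.110 for Elac2 and -0.13 to 0.22 for Tfb2m. The 16 tRNA rows under the filter had at most 11 counts in a library and were not tested in the reported fit.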
